A study of Mus musculus with 9 samples.

Results

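Slc2a3 encodes GLUT3, a glucose transporter of the cell membrane. Its transcript was examined here for peaks of RNA recovered with tagged subunits of the Polycomb repressive complex 2 (PRC2). The members were such peaks on the minus strand of chromosome 6 with a summit between 122677000 and 122752000 (build mm9). This is the stretch of Slc2a3, which is transcribed from that strand. There were 30 such peaks among 49266 in the series. The stretch was selected on the number of peaks, since it lay in a window among the 10 densest of the series, so its number of peaks against other stretches is a description with no test. Only the difference between the proteins was tested. It was not itself a criterion of the choice, but it is computed from the same counts per library. The choice favoured a high minimum number of peaks over the libraries, which can even out the counts. A small difference is therefore not read as equality.

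PRC2 places a repressive methyl mark on histone H3. EZH2 is its methyltransferase subunit and SUZ12 a core subunit that the enzyme needs for its activity, and both have been studied as RNA-contacting proteins. GLUT3 belongs to the facilitative transporters, which let glucose move down its gradient, and is best known from neurons and from early embryonic cells. Its gene neighbours Nanog, which encodes a transcription factor of pluripotent cells and is transcribed from the plus strand.

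The libraries came from EL 16.7 cells, a female mouse embryonic stem cell line of the cross CAST/Ei x 129/Sv/Jae, after 7 days of adherent differentiation. All 4 lines stably expressed the biotin ligase BirA together with an Avi-GFP-tagged subunit, and each was a separate clone. EZH2 replicates 1 and 2 carried mEzh2 in clones 4A and 5A, and SUZ12 replicates 1 and 2 carried mSuz12 in clones 8E and 8H. Which promoter drove the tagged proteins, and whether the cells kept their own copies, was not given in the sources used here. In dCLIP, proteins are joined to RNA by UV light, the RNA is trimmed with RNase and the biotinylated complex is captured on streptavidin, so that a peak marks a stretch of RNA recovered with the tagged subunit. A mock library of cells with an empty vector (clone 2H) and 4 libraries of nascent transcription were not analysed here.

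Series of 4 values below put EZH2 before SUZ12 and replicate 1 before replicate 2. The lists held 10468, 13267, 11580 and 13951 peaks. Peak lists give neither read depth nor expression values, so markers of the cell type were not checked and RNA abundance was not analysed here. How far the level of the Slc2a3 transcript moves with its peaks was therefore not tested.

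Every library had minus-strand peaks on Slc2a3 and no library had a plus-strand peak there. EZH2 replicates 1 and 2 had 7 peaks each, SUZ12 replicate 1 had 11 and SUZ12 replicate 2 had 5. The SUZ12 libraries thus lay on either side of the EZH2 libraries. Over all libraries, 0 of 30 peaks on the plus strand allow a share of up to 10% by the limit of 3 counts, and the exact 95% interval of the minus-strand share was 88.4 to 100%. By library that exact interval was 59.0 to 100% in each EZH2 library, 71.5 to 100% in SUZ12 replicate 1 and 47.8 to 100% in SUZ12 replicate 2. Such intervals cover counting error only and take the peaks as independent, which they are not. Of the 30 peaks, 12 lay at sites found in every library. The rule chose the minus strand, so the share is a description.

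Nanog showed the opposite strand. On its shorter stretch, from 122655000 to 122668000, the plus strand held 1 and 3 peaks in EZH2 replicates 1 and 2 and 2 and 4 peaks in SUZ12 replicates 1 and 2. Its minus strand held 0 peaks in all libraries, and the 8999 bp between the stretches held 0 peaks on either strand. SUZ12 replicate 2, lowest on Slc2a3 with 5 peaks, was highest on Nanog with 4. Per 10 kb of stretch, Slc2a3 had 0.933, 0.933, 1.47 and 0.667 minus-strand peaks, a mean of 1.00 ± 0.336 (SD, n = 4), and Nanog 0.769, 2.31, 1.54 and 3.08 plus-strand peaks, a mean of 1.92 ± 0.993 (SD, n = 4). By length the Nanog stretch was thus the denser one in 3 of 4 libraries. This order depends on the length taken, since most of the Slc2a3 stretch, as described below, held no peak. The first 15 kb of Slc2a3 alone held 6, 5, 10 and 3 peaks, more than the Nanog stretch in all libraries but SUZ12 replicate 2. That part was singled out after the peaks were seen. On this pair of neighbours the peaks followed the strand of each gene.

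**Figure D1:**
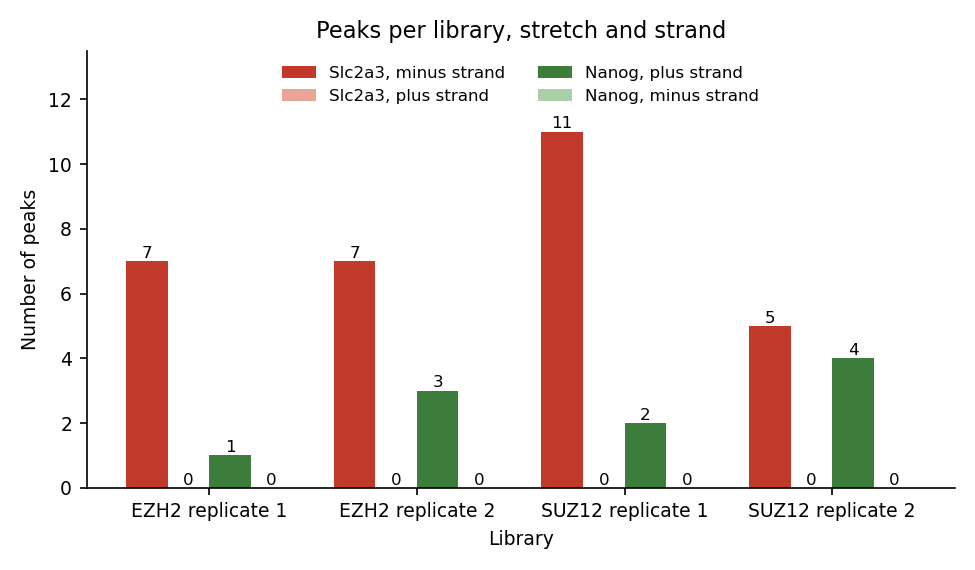
Number of peaks (vertical axis) in each library (horizontal axis) on either strand of the Slc2a3 and Nanog stretches, with the number above each bar. Slc2a3 minus-strand bars reach 5 to 11 and Nanog plus-strand bars 1 to 4, while the other strands are at 0 throughout.

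Members came close to the low-coordinate edge of the stretch and stayed far from the high one. The member nearest to the former was 844 bp inside, in SUZ12 replicate 1, and the nearest minus-strand peak outside it was 119.999 kb away, in the same library. At the high-coordinate edge the nearest member lay 37.011 kb inside and the nearest peak outside 1597.25 kb away. Widening the stretch by less than 119.999 kb on either side would have added no member.

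Relative to other stretches of 75 kb, counted per strand in step with Slc2a3, the gene ranked high in each list. Of 14292 stretches with any peak, 29 had at least as many as Slc2a3 in EZH2 replicate 1, 37 in EZH2 replicate 2, 7 in SUZ12 replicate 1 and 266 in SUZ12 replicate 2. A minimum over the 4 libraries of at least 5 peaks was reached by 31 stretches, Slc2a3 included, which is 0.217% of all. This rank is close to what the rule selected, and nothing is read from it.

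The peaks were crowded at the low-coordinate side of the stretch, which is the 3′ side for the minus strand. Transcript ends were not mapped, so this is a place in the stretch and not a place within a transcript. In steps of 15 kb from the low-coordinate edge, the stretch held 24, 4, 2, 0 and 0 peaks. All 4 peaks of the second step lay at its very start, so that 28 of 30 summits fell within the first 16 kb and spanned 14.653 kb. SUZ12 replicate 1 and EZH2 replicate 1 had all of their 11 and 7 peaks there. EZH2 replicate 2 and SUZ12 replicate 2 each had 1 further peak, and these lone peaks did not overlap. The former, at chr6:122714238-122714384, had a false discovery rate (FDR), as assigned by the authors' peak caller, of 0.00522, and the latter, at chr6:122714919-122715075, an FDR of 3.39e-06. Their summits were 751 bp apart and 21.741 kb or more from the crowded part. The last 37.011 kb of the stretch held no member.

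RefSeq (GRCm38.p6) gives Slc2a3 a span of 74555 bp with 1 curated and 5 predicted transcripts, and the pseudogene Gm4482 overlaps it there. Coordinates of that build were not carried over to mm9, so members were not assigned to exons, introns or untranslated regions.

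**Figure D2:**
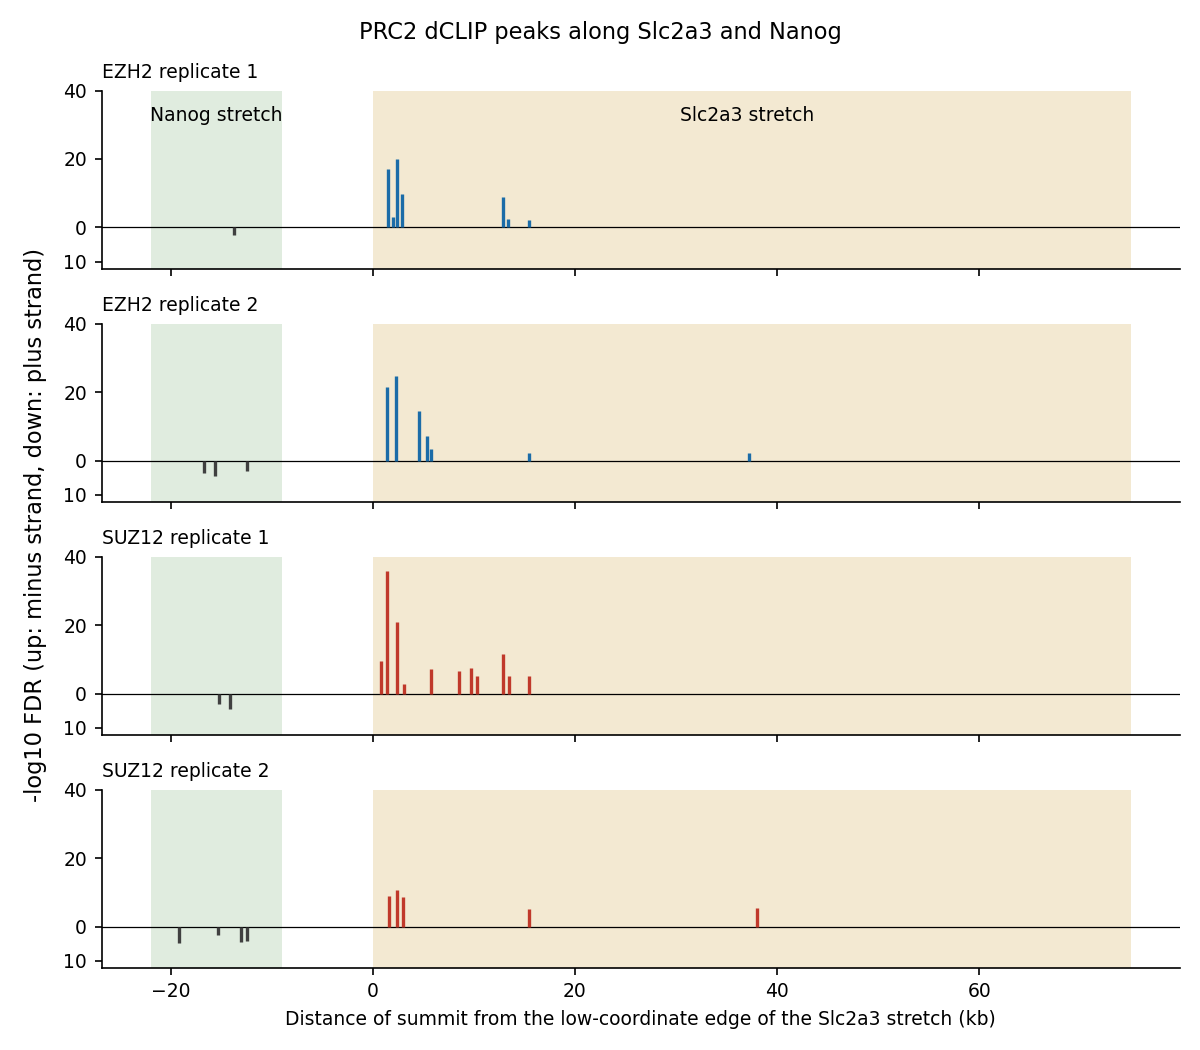
Strength of each peak as −log10 FDR (vertical axis, upward for the minus strand and downward for the plus strand) against the distance of its summit from the low-coordinate edge of the Slc2a3 stretch in kb (horizontal axis), 1 panel per library. Bars crowd within 16 kb of the edge in all 4 libraries, and the Nanog bars on the other strand are fewer and shorter than the tallest Slc2a3 bar of each panel.

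The 30 peaks merged into 17 sites, of which 3 were found in all 4 libraries, 4 in 2 libraries and 10 in 1. Across the series, 8.08% of 44277 sites were found in at least 2 libraries and 0.908% in all 4, against 7 and 3 of the 17 sites here (41.2% and 17.6%). Peaks in every library were part of the choice of the stretch, so this comparison is a description and was not tested. The number of sites found in at least 2 libraries was 4 without EZH2 replicate 1, 4 without SUZ12 replicate 1 and 6 without either other library. The 3 common sites stay common by construction when a library is left out, so nothing is read from that. Merging chains peaks together, so members of a site need not all overlap, and both counts depended on the matching rule. With a 50% reciprocal overlap, 3 sites were found in at least 2 libraries and 1 in all 4. With summits within 100 bp these numbers were 8 and 2, and in the 50% of peaks with the lowest FDR of each library 6 and 2.

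The common site with the lowest FDR of any member lay 1.2 to 1.7 kb from the low-coordinate edge, at chr6:122678166-122678689. It held the strongest peak of the whole minus-strand list of SUZ12 replicate 1, with an FDR of 1.10e-36 and a width of 524 bp. EZH2 replicates 1 and 2 called it at an FDR of 1.18e-17 and 4.32e-22, ranking 16 of 5095 and 9 of 6541 peaks, with widths of 346 and 368 bp. SUZ12 replicate 2 had a narrower peak of 77 bp there, with an FDR of 1.38e-09 and rank 79 of 6486. The bases covered in every library were the 56 bp at chr6:122678565-122678620. By rank, the clones of SUZ12 thus gave the strongest and the weakest call of this site, with the EZH2 clones between them.

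The second common site, 2.1 to 2.5 kb from the edge, covered chr6:122679062-122679476. It was the strongest member in 3 of 4 libraries, with an FDR of 8.34e-21 and 1.85e-25 in EZH2 replicates 1 and 2 and 2.43e-11 in SUZ12 replicate 2. SUZ12 replicate 1 gave 1.29e-21, its second strongest member. Ranks in the minus-strand lists were 9, 5, 8 and 46. The 4 summits lay within 68 bp of each other, against 244 bp at the site before it. An interval of 85 bp, chr6:122679343-122679427, was covered in all libraries.

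The third common site, at chr6:122692091-122692594, closed the crowded part on its 5′ side and was weaker. EZH2 replicates 1 and 2 called it at an FDR of 0.00532 and 0.00484, and SUZ12 replicates 1 and 2 at 5.64e-06 and 6.49e-06. Within their own lists these peaks ranked 3855 of 5095, 4865 of 6541, 353 of 5633 and 515 of 6486. Both EZH2 peaks therefore sat in the weaker part of their list and both SUZ12 peaks in the strongest 10%, a difference that was seen after choosing the site and was not tested. Summits agreed within 57 bp, and 128 bp at chr6:122692406-122692533 were covered in every library.

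Each of the 4 sites found in 2 libraries joined an EZH2 library with a SUZ12 library, and 0 sites were found in both clones of a single protein only. How the 2637 sites of 2 libraries in the whole series split in this way was not counted, so nothing is read from this. EZH2 replicate 1 and SUZ12 replicate 2 met at chr6:122679851-122680000, where the peaks touched by 1 bp and had an FDR of 1.91e-10 and 1.55e-09. The other three all included SUZ12 replicate 1. With EZH2 replicate 2 it shared chr6:122682743-122682894, at an FDR of 0.000373 for EZH2 and 4.84e-08 for SUZ12. With EZH2 replicate 1 it shared chr6:122689808-122690004, at 1.31e-09 and 2.22e-12, and chr6:122690127-122690550, at 0.00286 and 5.03e-06. SUZ12 replicate 1 had the lower FDR in all of these, but FDRs of different lists are not on a common scale.

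The remaining 10 sites were found in 1 library each, 1 in EZH2 replicate 1, 3 in EZH2 replicate 2, 5 in SUZ12 replicate 1 and 1 in SUZ12 replicate 2. SUZ12 replicate 1 alone had peaks at chr6:122685487-122685652, chr6:122686634-122686788 and chr6:122687088-122687295, with FDRs of 2.91e-07, 2.79e-08 and 7.59e-06. EZH2 replicate 2 alone had chr6:122681407-122681590, with an FDR of 2.54e-15 the strongest member found in a single library, and chr6:122682372-122682470, with 7.11e-08. The member closest to the low-coordinate edge, at chr6:122677832-122677937 with an FDR of 3.55e-10, was also found in SUZ12 replicate 1 alone. Its last lone site, at chr6:122680020-122680057, and that of EZH2 replicate 1, at chr6:122679003-122679060, were narrow, at 38 and 58 bp, and weak, with FDRs of 0.00203 and 0.00121. Summits of 21 of 30 members lay within 100 bp of a summit in another library, and the farthest was 3191 bp away. This share was not computed over all peaks, so no conclusion is drawn from it.

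**Figure D3:**
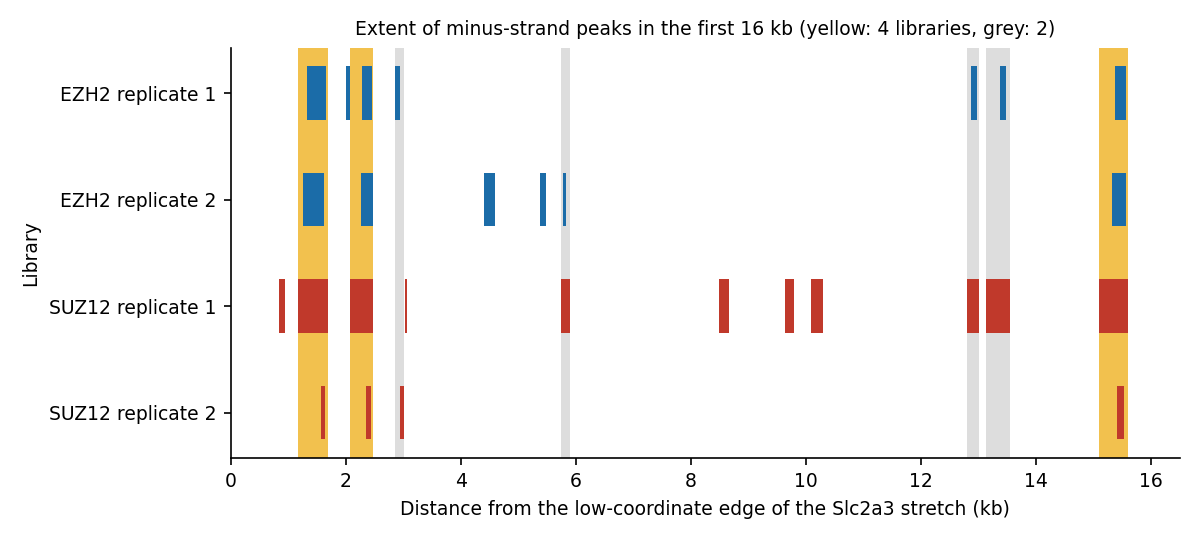
Extent of each minus-strand peak in the first 16 kb of the Slc2a3 stretch, as distance from its low-coordinate edge in kb (horizontal axis), 1 row per library. Shading marks merged sites found in 4 libraries (yellow, 3 sites) or in 2 (grey, 4 sites), and the middle part between 8 and 11 kb holds peaks of SUZ12 replicate 1 only.

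Members were strong for their lists. Of 30, 9 stood among the lowest 1% of FDRs of their own minus-strand list and 23 among the lowest 10%, where 0.993% and 9.99% of all peaks do. By library, 4 of 7, 4 of 7, 10 of 11 and 5 of 5 members were in the lowest 10%. The median FDR of the members was 1.31e-09 in EZH2 replicate 1 and 7.11e-08 in replicate 2, against 0.00201 and 0.00169 for their lists. For SUZ12 replicates 1 and 2 it was 4.84e-08 and 1.55e-09, against 0.00202 and 0.00112. SUZ12 replicate 2, which had the fewest members, thus kept only strong ones, and its weakest had an FDR of 6.49e-06. The weakest members of EZH2 replicates 1 and 2 had 0.00532 and 0.00522.

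Sharing and strength went together across the series. Among all peaks, 46.7% of those in the lowest 10% of FDRs of their list lay at a site of at least 2 libraries, and 14.1% of the others. Of the Slc2a3 members, 16 of the 23 in the lowest 10% and 4 of the other 7 did. The shared sites of Slc2a3 are thus set beside a series in which stronger peaks were also more often shared, and the part of strength in the count was not tested.

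Most p-values in the lists were whole powers of 0.5. In the series, 97.7% of peaks had a −log2 p within 0.001 of a whole number, and 23 of 30 members did (76.7%). The remaining 7 members lay at just 2 sites. They were all 4 peaks of the third common site and 3 of the 4 peaks of the first, where SUZ12 replicate 2 was the exception. At the second common site all 4 values were whole powers. This count was made after the data were seen, and what sets it was not tested.

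Nanog peaks were less extreme. Their lowest FDR in any library was 1.62e-05, in SUZ12 replicate 2, and the best rank within a plus-strand list was 9.80%, in SUZ12 replicate 1. Peaks of 2 libraries overlapped at 2 of the 8 Nanog sites. In each library the strongest Slc2a3 member ranked higher in its list than any Nanog peak in its own list.

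**Figure D4:**
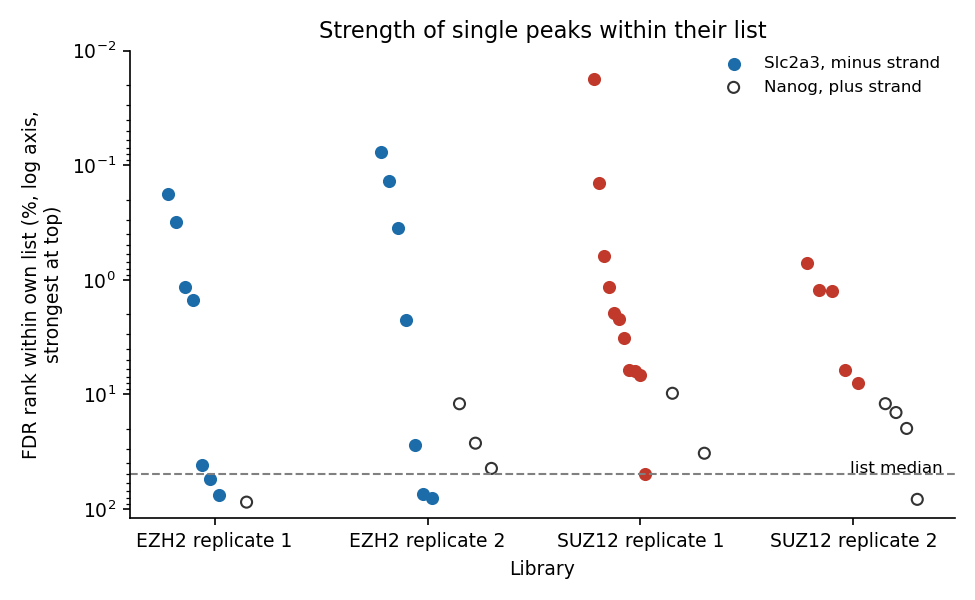
FDR rank of each peak within its own list and strand in percent (vertical log axis, strongest at the top) by library (horizontal axis), filled points for Slc2a3 and open points for Nanog, with a dashed line at the list median. Slc2a3 points reach 0.0178% in SUZ12 replicate 1, while no Nanog point is above 9.80%.

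Widths lay on either side of the medians of their lists. The median width of members was 99 and 184 bp in EZH2 replicates 1 and 2, against 174 and 188 bp for their minus-strand lists. It was 197 bp against 168 bp in SUZ12 replicate 1 and 85 bp against 129 bp in SUZ12 replicate 2. Members covered 1045, 1323, 2879 and 516 bp in the same order, from 38 bp for the narrowest to 524 bp for the widest. SUZ12 replicate 1 covered the most and SUZ12 replicate 2 the least, so the clones of SUZ12 enclosed those of EZH2 in this measure too. Members at sites of at least 2 libraries had a median width of 183.5 bp and those at sites of 1 library 151 bp.

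The number of peaks was then compared between the proteins, on the same counts that the choice of the stretch used. Per 10000 peaks of the list, EZH2 replicates 1 and 2 had 6.69 and 5.28 on Slc2a3, with a mean ± SD of 5.98 ± 0.998 (n = 2). SUZ12 replicates 1 and 2 had 9.50 and 3.58, with a mean ± SD of 6.54 ± 4.18 (n = 2). The groups overlapped, and the difference of 0.560, SUZ12 minus EZH2, was smaller than the spread between the SUZ12 clones (p = 1 by a two-sided exact permutation test, which allows no p below 0.333). It was 1.27 without EZH2 replicate 1, -0.145 without EZH2 replicate 2, -2.40 without SUZ12 replicate 1 and 3.52 without SUZ12 replicate 2, so no direction is given. In a limma fit over 1496 stretches, the log2 difference of Slc2a3 was -0.02 ± 0.46 (SE), with an adjusted p of 0.987. Its 95% interval before adjustment ran from 0.525-fold to 1.84-fold, SUZ12 over EZH2. Limma took the SE from the variance of all stretches, so this interval does not measure the spread of the Slc2a3 clones alone. Their log2 values were 2.84 and 2.50 for EZH2 and 3.31 and 1.98 for SUZ12. At equal list lengths the SE was also 0.46, and the interval was wider through the degrees of freedom that limma assigned. The interval moved with the libraries, scaling and list lengths used. It was 0.285-fold to 1.35-fold without SUZ12 replicate 1, 0.683-fold to 3.57-fold without SUZ12 replicate 2 and 0.418-fold to 3.11-fold at equal list lengths. Over the 12 alternatives the lower bound ranged from 0.285-fold to 0.683-fold and the upper bound from 1.35-fold to 3.57-fold, so no firm limit on the difference is drawn from 5 to 11 peaks per library. Of all stretches tested, 0% were called higher and 0% lower in SUZ12 at an adjusted p of 0.05, and 69 had an unadjusted p under 0.05 in limma. Without SUZ12 replicate 1 that fit called 2 stretches, both lower in SUZ12, and Slc2a3 was not past the threshold.

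To place Slc2a3 beside stretches with a similar number of peaks, the 31 others with 24 to 36 peaks over all libraries were described in the same way. On Slc2a3, 93.3% of peaks fell in the densest 15 kb, while the others ranged from 33.3% to 64% with a median of 45.5%. Sites found in at least 2 libraries made up 41.2% of the Slc2a3 sites and 9.09 to 33.3% of the others, with a median of 21.1%. In the strongest 10% of their list were 76.7% of the Slc2a3 peaks and 0 to 46.7% of the others, with a median of 20%. Slc2a3 was outside the range of the others in these 3 measures, of which the last 2 are related, as given above. The stretch was chosen for a dense window and for peaks in every library. The first 2 measures are thus close to that choice, and nothing is read from them. With a 50% reciprocal overlap, 3 of 23 Slc2a3 sites were found in at least 2 libraries, and the other stretches were not recounted by that rule. Median width, at 156 bp, lay inside the range of 103 to 175 bp. An opposite strand without peaks was shared with 24 of the 31. This comparison was chosen after the data were seen, has no test, and the borders of the other stretches were set by steps of 75 kb and not by genes, so they can cut a transcript or join several.

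**Figure D5:**
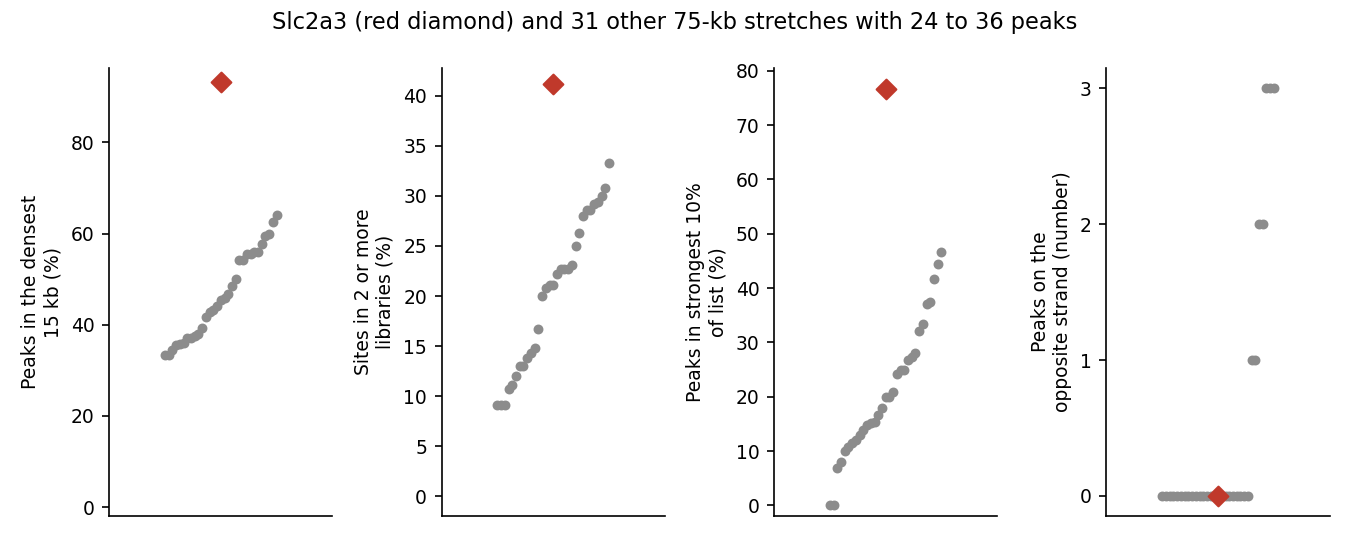
Slc2a3 (red diamond) and 31 other 75-kb stretches of 24 to 36 peaks (grey points, sorted from low to high), with the share of peaks in the densest 15 kb, the share of sites in at least 2 libraries, the share of peaks in the strongest 10% of their list, all in percent, and the number of peaks on the opposite strand. The diamond lies above all grey points in the 3 shares, at 93.3%, 41.2% and 76.7%, and at 0 in the last panel, where 24 of the 31 lie too.

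The stretches whose numbers of peaks were most like those of Slc2a3 were found by the distance between log2 peaks per 10000 over the 4 libraries. Nearest was the plus strand of chromosome 3 from 88327001 to 88402000, at a distance of 0.42, with 6 and 7 EZH2 peaks and 9 and 6 SUZ12 peaks. Next came the plus strand of chromosome 12 from 110902001 to 110977000, at 0.52, with 7, 5, 12 and 6 peaks, and from 110752001 to 110827000, at 0.53, with 7, 7, 9 and 7. With 4 libraries this likeness is loose, and Slc2a3 had fewer peaks in SUZ12 replicate 2 than any of them.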

How the data were processed

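Peaks of 4 dCLIP libraries were deposited as 8 lists, split by library and strand, and replicates were not pooled. Per the submitters' processing notes, Trim Galore 0.3.3, TopHat2 2.0.8, SAMtools 0.1.18 and bedtools 2.17.0 were used with build mm9. Peak names carry the prefix of the caller PeakRanger, for which neither settings nor the use of a control is stated. The deposited lists give the authors' p-value and FDR of each peak, and these served to rank it against peaks of its own list. Starts are printed counted from 1 and summits were used as deposited.

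Members and lists were chosen with earlier results of these data known. Peaks were assigned by summit. Same-strand peaks overlapping by at least 1 bp were merged into sites. For the test between proteins, peaks were counted in 75-kb stretches per strand, and stretches with a mean of at least 2 were scaled to peaks per 10000 (0.5 added) and put on the log2 scale. Two-sided limma-trend tests were adjusted by Benjamini-Hochberg. The fit was also run on simulated Poisson counts without added variation between clones. That run therefore does not measure its power on these clones. Peak numbers are not reads, so no count model was used. Clones are separate cell lines. Named were all sites of at least 2 libraries, the strongest peak per library, the peaks at the edges and the 3 most similar stretches. Sites of 1 library were named after their values were seen. Glucose transporter and glycolysis genes planned for comparison were not counted, as no annotation of mm9 was used here, and no sequence is shown. Python 3.11.15, pandas 2.3.3, NumPy 2.4.6, SciPy 1.17.1, matplotlib 3.10.9, R 4.3.3 and limma 3.58.1 were used.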

Additional observations from a re-analysis of the deposited data

How the results depend on the processing

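The log2 difference of Slc2a3 between SUZ12 and EZH2 did not pass the limma threshold under any of the 12 alternatives. It turned positive with just the stronger 50% of every list (0.42), at equal list lengths (0.19) and without scaling (0.085), and ranged from -0.69 to 0.64 when each library was left out, where the lone clone of a protein is assumed to vary like the others. The cause was not tested. The difference per 10000 peaks ranged from -2.40 to 3.52 with a library left out. The number of stretches called ranged from 0 to 2 with a library left out and was 0 otherwise. Sites found in at least 2 libraries numbered 3 with a 50% reciprocal overlap and 4 to 6 with a library left out. The minus-strand share was 100% in all 7 alternatives. With the replicate number as a block the log2 difference was -0.02 (adjusted p = 0.975 in limma), 0 stretches were called and 92 had an unadjusted p under 0.05, against 69 without the block. Deviations of same-numbered libraries correlated at 0.0364 over 1496 stretches, so the numbers are not shown to pair the samples. The number of peaks, 5 to 11 per library, limits every comparison here.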
